A study of Mus musculus with 2 samples.

Results

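The genes described here encode collagen chains and the enzymes and chaperone that process them. They were taken from the gene table by symbol, as numbered collagen chains together with the lysyl hydroxylases (Plod), the lysyl oxidases (Lox and Loxl), the leprecan family (Lepre and Leprel) and P4ha2, P4ha3, Serpinh1, Pcolce, Bmp1 and Adamts2. This gave 43 of the 12557 genes in the table, 26 of them collagen chains and 17 processing genes. The measurements are RNA sequencing values from mouse sinoatrial node cells of ICR embryos, with 1 library for Isl1 mutants (Hcn4-CreERT2; Isl1f/f; Rosa-tdTomato) and 1 library for controls (Hcn4-CreERT2; Isl1+/+; Rosa-tdTomato). Both genotypes thus carried the tamoxifen-inducible Cre driven from Hcn4 and the red reporter, and both received tamoxifen at E10.5 (embryonic day), with harvest 36 hours later at E12 to E12.5. Each library is a pool of embryos, from which cells binding CD31 beads were removed and Tomato-positive cells were sorted, the reporter marking cells in which the Cre had acted. Markers of other cell types, given with the marker lists, were also present in both libraries.

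Collagens are secreted proteins of the extracellular matrix whose chains wind around each other in threes of repeated glycine-containing sequence. In the endoplasmic reticulum, prolyl and lysyl hydroxylases modify the chains before the helix forms, and the chaperone HSP47 then binds the folded helix. After secretion, proteases trim the ends of fibrillar procollagens and lysyl oxidases start the crosslinks between molecules. Fibrillar collagens are chiefly made by mesenchymal cells of the heart, whereas type IV collagens form the network of basement membranes, including those around heart muscle cells.

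Values are in RPKM, reads per kilobase of exon scaled to library size, and rest on 119018888 reads in the mutant library and 110117186 reads in the control library. With 1 library per genotype there was no replicate error and no test was made. Folds are ratios of RPKM, and the intervals given beside them are exact at 95% and cover counting error alone, because PCR copies of a molecule are not independent. Medians are of log2((mutant RPKM + 1)/(control RPKM + 1)), a scale that understates the change of genes at low level. A gene was called higher or lower by size when it reached 1 on that scale and 5 RPKM in at least 1 library. In a bulk sample, fewer cells of a type and less RNA per cell cannot be told apart.

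Isl1, the deleted transcription factor gene, stood at 1.52 RPKM in the mutant library and at 7.65 RPKM in the control library, 5.02-fold lower in the mutant (interval 4.53 to 5.56). Of 9 pacemaker markers 8 are in the table, Isl1 among them, and all 8 were lower, where 67.1% of all genes were lower. They summed to 146 RPKM in the mutant library and 264 RPKM in the control library. Hcn4, the pacemaker channel gene named in the Cre line, stood at 0.541 RPKM in the mutant library and 1.99 RPKM in the control library. All 10 heart muscle markers were present, led by Actc1 at 8539 RPKM in the mutant library and 5374 RPKM in the control library. Ratios moved with expression level over all genes. The median log2 ratio was -0.56 where the geometric mean of both libraries was under 1 RPKM. It was -0.25 at 1 to 2 RPKM and 0.091 at 100 RPKM or more. Genes under 1 RPKM on that mean reached 1 RPKM in 1 library only, so they had to differ.

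Collagen chains were lower in the mutant library as a group, while the processing genes were divided. The RPKM of the 26 chains summed to 291 in the mutant library and 573 in the control library, 1.97-fold lower in the mutant. The 17 processing genes summed to 192 RPKM in the mutant library and 184 RPKM in the control library. Of the 43 genes, 21 reached 5 RPKM in at least 1 library. By the size rule 2 of them were lower, Col1a2 and Col3a1, against 2.68% of all 6343 genes at that level. P4ha2, a prolyl 4-hydroxylase gene, was the only member called higher, against 1.01% of all genes.

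Without a minimum size, 15 of the 21 genes at 5 RPKM were lower in the mutant library and 6 were higher, where 61.9% of all genes at that level were lower and 38.1% higher. Their median log2 ratio was -0.62, beside -0.10 for all genes at that level. Over all 43 genes the median was -0.75, beside -0.18 for all 12446 gene symbols, and 34 genes were lower and 9 higher, where 67.1% of all genes were lower and 32.9% higher. The table holds only genes that reach 1 RPKM in at least 1 library. Of the 43, 29 did so in both libraries, 11 in the control library only and 3 in the mutant library only, and these 14 genes had to differ to be listed.

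**Figure D1:**
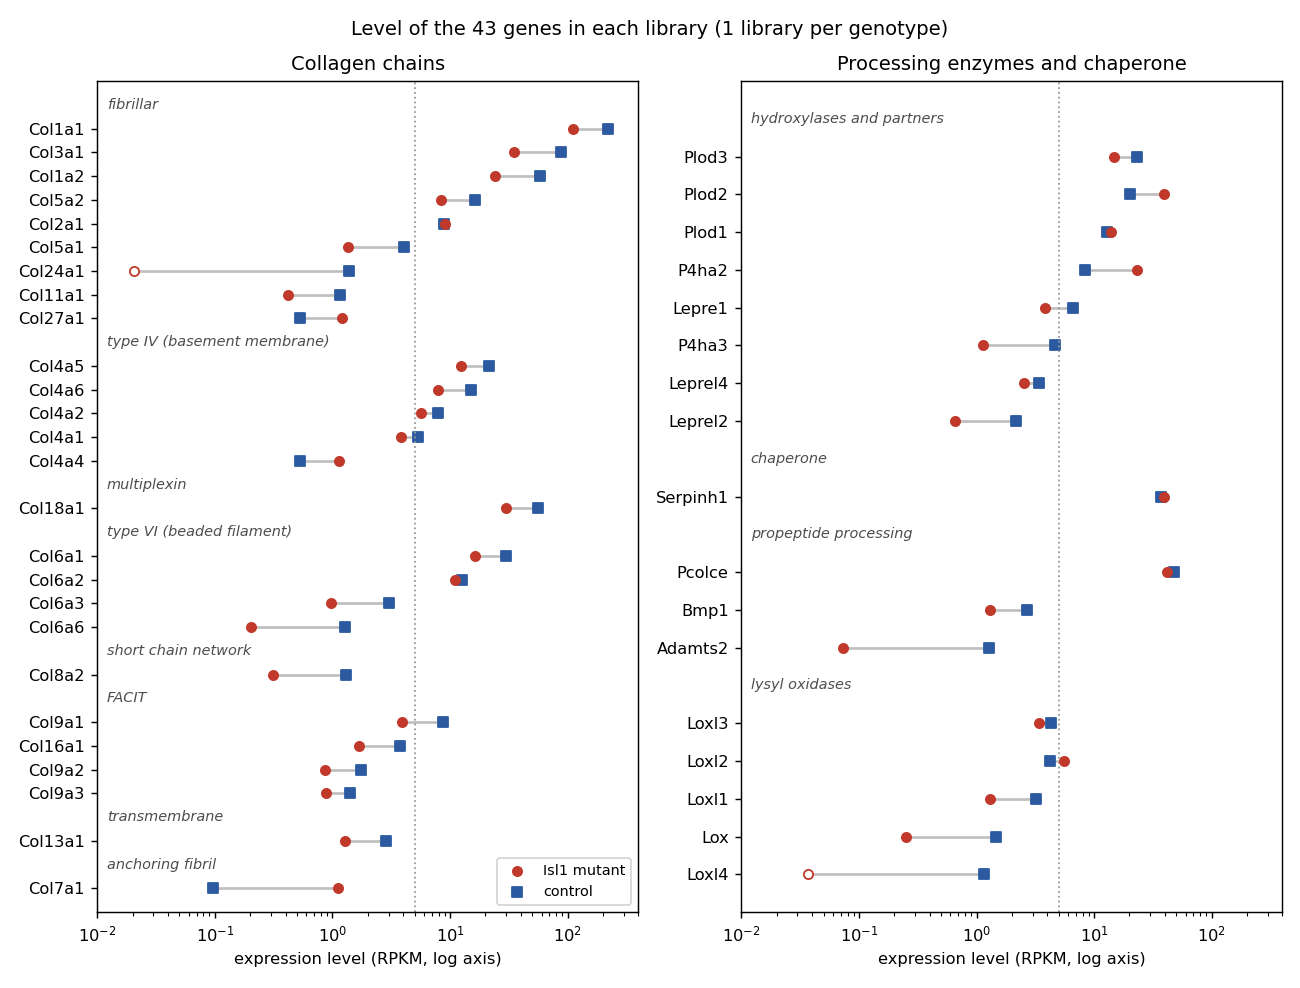
Expression level of all 43 genes in RPKM on a log axis, with red circles for the Isl1 mutant library and blue squares for the control library, grouped by collagen class or enzyme role. The dotted line marks 5 RPKM, and open circles mark the 2 genes that stand at the deposited fill value in the mutant library. Most collagen chains lie left of their control value, while P4ha2 and Plod2 lie right of it.

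Promoter sequence is shown for the 3 genes that the size rule called, because they went in opposite directions. RefSeq windows on GRCm38.p6 matched 32 of the 43 genes, and the 250 bases before the annotated start are printed 5′ to 3′. In the P4ha2 window (chr11:54100674-54100923, plus strand) capitals mark ACGTG and GCGTG on either strand, the core letters bound by hypoxia-inducible factors. In the windows of Col1a2 (chr6:4505368-4505617, plus strand) and Col3a1 (chr1:45311288-45311537, plus strand) capitals mark the letters CCAAT and TATAAA.
P4ha2: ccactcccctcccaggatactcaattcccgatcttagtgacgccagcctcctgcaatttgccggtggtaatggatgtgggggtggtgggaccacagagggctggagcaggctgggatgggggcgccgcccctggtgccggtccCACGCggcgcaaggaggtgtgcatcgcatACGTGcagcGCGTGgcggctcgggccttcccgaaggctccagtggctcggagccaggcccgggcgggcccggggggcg
Col1a2: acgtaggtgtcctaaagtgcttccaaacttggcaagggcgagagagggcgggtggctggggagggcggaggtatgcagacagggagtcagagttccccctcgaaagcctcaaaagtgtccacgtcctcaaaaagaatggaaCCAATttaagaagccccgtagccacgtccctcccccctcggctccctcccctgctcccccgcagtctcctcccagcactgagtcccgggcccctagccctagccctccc
Col3a1: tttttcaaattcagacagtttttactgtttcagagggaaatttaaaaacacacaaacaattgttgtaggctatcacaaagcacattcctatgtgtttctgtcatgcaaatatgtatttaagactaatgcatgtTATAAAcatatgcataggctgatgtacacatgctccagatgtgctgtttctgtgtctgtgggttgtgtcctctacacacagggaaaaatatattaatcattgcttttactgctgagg

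The P4ha2 window held 1 match to ACGTG and 2 to GCGTG. Of all 32851 windows of the same length, 16.6% held ACGTG and 28.2% held GCGTG on either strand, and of the 32 matched genes 8 and 12 did so. Col1a2, which was lower in the mutant library, also held 2 matches to ACGTG, not marked above. It had 1 CCAAT, 109 bases before the start, found in 33.8% of all windows. Col3a1 had 1 TATAAA, 117 bases before the start, found in 12.4%. The windows differ in base composition, with 70.0% G and C for P4ha2, 62.0% for Col1a2 and 35.2% for Col3a1. GGGCGG, the letters of the GC box, occurred in 22 of the 32 matched genes (68.8%) and in 32.7% of all windows. A gene was counted if any of its windows held the letters, and 4 matched genes had several windows. All windows also include genes that are not listed here, so shares of genes and of windows are unlike measures. These matches describe letters in a window and show no binding.

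Fibrillar collagens, which form the banded fibres of connective tissue, held most of the collagen RNA, with 65.7% of the summed collagen RPKM in the mutant library and 69.9% in the control library. Of 9 fibrillar chains in the table, 7 were lower and 2 were higher, with a median log2 ratio of -0.98. As 67.1% of all genes were lower, 7 of 9 is near that share, as are the counts of 4 of 5 in the type IV and lysyl oxidase classes below. Col1a1 (chromosome 11, 94797538 to 94814356, mm9), the alpha 1 chain of type I collagen, was the most abundant collagen, with 112 RPKM in the mutant library and 222 RPKM in the control library. It was 1.99-fold lower in the mutant (interval 1.97 to 2.002), at -0.98 on the log2(RPKM + 1) scale and thus just short of the size rule. Its gene overlaps Gm17329 on the opposite strand over 1152 bp, and that entry stood at 203 RPKM in the mutant library and 418 RPKM in the control library. The labels record no strand-specific counting, so reads of the shared stretch cannot be told apart.

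Col1a2 (chromosome 6, 4454814 to 4491543, mm9), the alpha 2 chain that joins Col1a1 in type I collagen, had 23.9 RPKM in the mutant library and 58.7 RPKM in the control library, 2.45-fold lower (interval 2.40 to 2.51). Col3a1 (chromosome 1, 45368383 to 45406551, mm9), the chain of the type III collagen of pliable tissues, had 34.96 RPKM in the mutant library and 87.6 RPKM in the control library, 2.51-fold lower (interval 2.48 to 2.54). Among 6343 genes ranked from the lowest ratio, Col3a1 was in place 56, Col1a2 in place 73 and Col1a1 in place 182. The intervals of Col1a1 and Col1a2 did not overlap, so these chains of the same molecule differed by unequal factors beyond counting error. Those intervals do not cover PCR copies or reads of the stretch that Col1a1 shares with Gm17329. Col1a1 over Col1a2 was 4.67 in the mutant library and 3.78 in the control library.

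Type V collagen, which joins type I fibres and limits their width, was also lower. Col5a2 had 8.36 RPKM in the mutant library and 16.4 RPKM in the control library, 1.97-fold lower (interval 1.90 to 2.04). Col5a1, its partner chain, was under 5 RPKM in both, with 1.34 RPKM in the mutant library and 4.04 RPKM in the control library, 3.01-fold lower (interval 2.82 to 3.21). Col5a1 shares 5021 bp with Gm13372 on the opposite strand. Both chains were lower, and the scarcer chain by the larger factor. Col11a1, a fibrillar chain related to type V, had 0.421 RPKM in the mutant library and 1.15 RPKM in the control library. Col24a1, a minor fibrillar chain, stood at the fill value in the mutant library, a constant worth 1.56 reads that stands in place of a count and is taken here as 0, against at least 98 reads and 1.38 RPKM in the control library. Against a limit of 3 reads this is at least 35.3-fold lower. Col11a1 and Col24a1 were listed through the control library only and so had to be lower.

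Col2a1 and Col27a1 were the fibrillar chains that were not lower. Col2a1, the main collagen of cartilage that is also made in embryonic heart cushions, had 8.9995 RPKM in the mutant library and 8.90 RPKM in the control library, 1.01-fold higher (interval 0.973 to 1.05, which includes no difference). Col27a1, a fibrillar chain of cartilage, had 1.21 RPKM in the mutant library and 0.532 RPKM in the control library, 2.27-fold higher (interval 1.84 to 2.82) but under 5 RPKM in both. Of 8 listed cartilage markers, Sox9 and Hapln1 are in the table. Sox9, a regulator of cartilage and cushion cells, had 0.594 RPKM in the mutant library and 2.33 RPKM in the control library, while Hapln1, a hyaluronan link protein gene, had 1.01 RPKM in the mutant library and 1.57 RPKM in the control library.

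**Figure D2:**
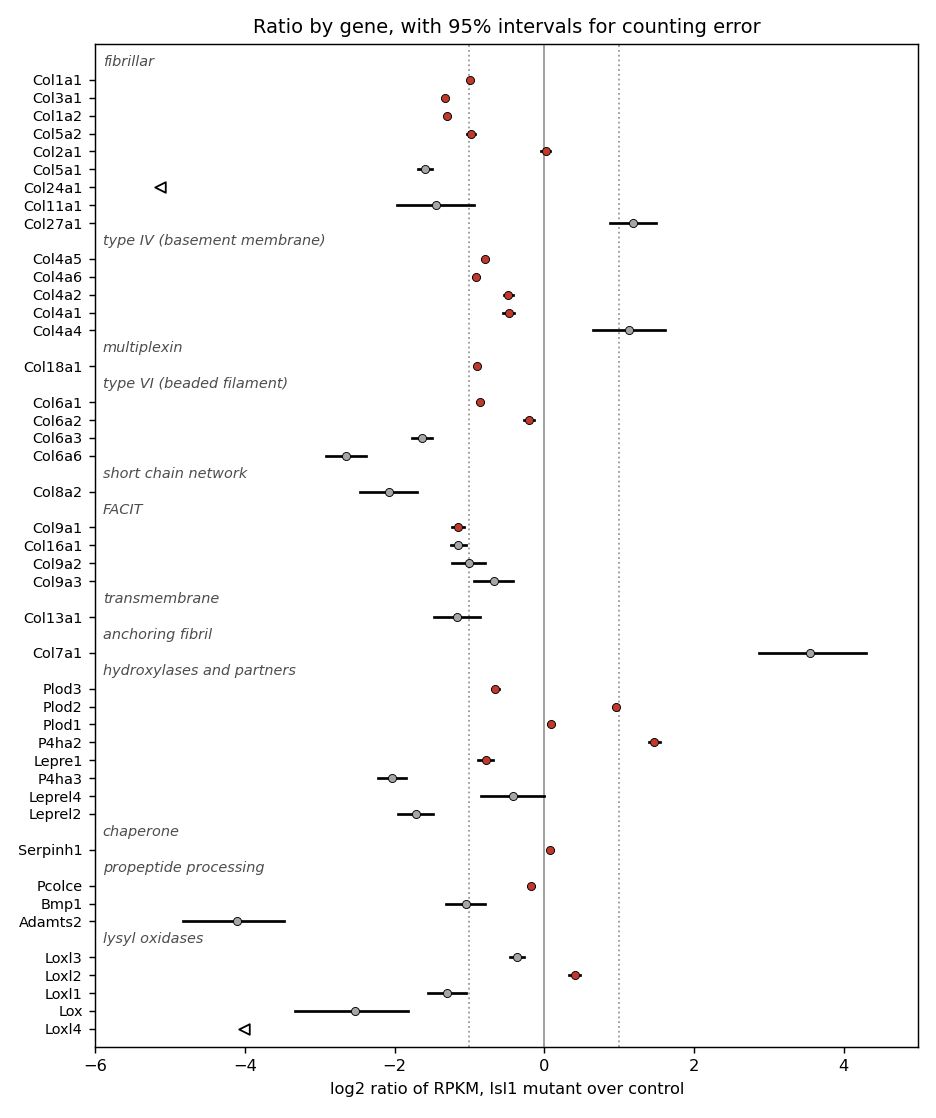
Log2 ratio of RPKM, Isl1 mutant over control, for each of the 43 genes, with bars for exact 95% intervals of counting error. Red points reach 5 RPKM in at least 1 library, grey points do not, open triangles mark the bound for the 2 genes at the fill value, and dotted lines mark a 2-fold ratio. Among the red points Col1a2, Col3a1 and Col9a1 lie below -1, and Col9a1 stays short of the size rule on the log2(RPKM + 1) scale.

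Type IV collagens had a median log2 ratio of -0.42 over 5 chains, of which 4 were lower. For the 4 chains at 5 RPKM the median was -0.58. Beside it, the 5 fibrillar chains at that level had -0.98 and the 2 type VI chains -0.51. The summed RPKM of the 5 type IV chains was 31.1 in the mutant library and 50.5 in the control library. Col4a5 had 12.5 RPKM in the mutant library and 21.6 RPKM in the control library, 1.73-fold lower (interval 1.69 to 1.77). Col4a6, its partner, had 7.97 RPKM in the mutant library and 15.02 RPKM in the control library, 1.89-fold lower (interval 1.83 to 1.94). These are chains of the basement membrane around smooth muscle and some epithelia, and here they exceeded the widespread chains Col4a1 and Col4a2 in both libraries on the RPKM scale.

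Col4a1, of the network found in nearly all basement membranes, had 3.85 RPKM in the mutant library and 5.35 RPKM in the control library, 1.39-fold lower (interval 1.33 to 1.46). Col4a2, which joins it in the same molecule, had 5.70 RPKM in the mutant library and 7.95 RPKM in the control library, 1.40-fold lower (interval 1.34 to 1.45). Both chains moved by nearly the same factor, and Col4a2 over Col4a1 was 1.48 in the mutant library and 1.49 in the control library. The genes lie head to head on chromosome 8, and in the deposited mm9 coordinates their first bases overlap by 22 bp. The shared stretch is shown because both genes start there, as RefSeq places it on GRCm38.p6 (chr8:11312805-11312826, plus strand).
Col4a1 and Col4a2 shared: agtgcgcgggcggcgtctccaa
Col4a5 and Col4a6 are also head to head, on chromosome X, 1308 bp apart, and their intervals of the ratio did not overlap.

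Col4a4, a chain of specialised basement membranes such as that of the kidney glomerulus, was the type IV chain that went the other way. It had 1.15 RPKM in the mutant library and 0.526 RPKM in the control library, 2.18-fold higher (interval 1.57 to 3.07) from at least 125 mutant and 53 control reads. Col18a1, a basement membrane proteoglycan core of the multiplexin class and the source of endostatin, had 29.9 RPKM in the mutant library and 55.5 RPKM in the control library, 1.86-fold lower (interval 1.82 to 1.89). It overlaps Slc19a1 on the opposite strand, at 5.15 RPKM in the mutant library and 6.89 RPKM in the control library.

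Type VI collagen forms beaded filaments between cells and the fibrillar matrix and is assembled from unlike chains. Col6a1 had 16.3 RPKM in the mutant library and 29.8 RPKM in the control library, 1.82-fold lower (interval 1.77 to 1.87). Col6a2 had 11.02 RPKM in the mutant library and 12.7 RPKM in the control library, 1.15-fold lower (interval 1.10 to 1.20). Col6a3, the other chain of the same molecule, had 0.980 RPKM in the mutant library and 3.04 RPKM in the control library, 3.10-fold lower (interval 2.84 to 3.39). The intervals of these 3 chains did not overlap, but Col6a3 was listed through the control library only and so had to be lower. Col6a1 and Col6a2 lie next to each other on chromosome 10 on the same strand, and Col6a1 over Col6a2 was 1.48 in the mutant library and 2.34 in the control library. Col6a6, a chain related to Col6a3, had 0.203 RPKM in the mutant library and 1.28 RPKM in the control library. It too was listed through the control library only.

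The other classes were at low level except for Col9a1. Of 4 collagens that sit on the surface of fibrils (FACIT), all 4 were lower, where 67.1% of all genes were lower. Their median log2 ratio was -0.69. Col9a1, a chain of type IX collagen, had 3.94 RPKM in the mutant library and 8.76 RPKM in the control library, 2.22-fold lower (interval 2.10 to 2.35). All 3 chains of type IX collagen in the table were lower. Its partners, Col9a2 and Col9a3, had to be lower, because they were listed through the control library only. They were 2.02-fold (interval 1.73 to 2.36) and 1.60-fold lower (interval 1.34 to 1.91), and both were under 2 RPKM. Col16a1, a minor FACIT collagen, had 1.69 RPKM in the mutant library and 3.75 RPKM in the control library. None of these 3 reached 5 RPKM in either library. Col13a1, a transmembrane collagen of cell adhesions, had 1.27 RPKM in the mutant library and 2.84 RPKM in the control library. Col8a2, of the short chain network of vessel and corneal matrix, had 0.310 RPKM in the mutant library and 1.31 RPKM in the control library. It was likewise listed through the control library only.

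Col7a1 had the highest ratio of the collagens. This chain forms the anchoring fibrils that hold epithelia to the tissue below, and it had 1.12 RPKM in the mutant library and 0.0956 RPKM in the control library, from at least 240 mutant and 19 control reads. The ratio was 11.7-fold higher in the mutant (interval 7.32 to 19.8). Col7a1 reached 1 RPKM in the mutant library only, as did Col27a1 and Col4a4, and at 0.95 on the log2(RPKM + 1) scale it did not meet the size rule.

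**Figure D3:**
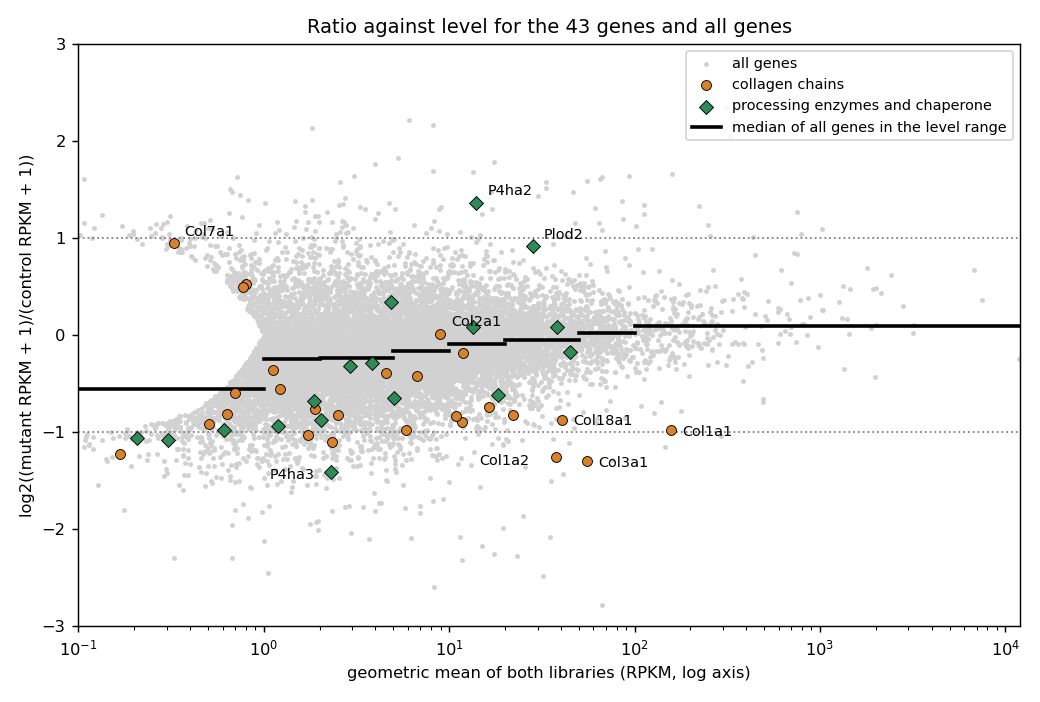
Log2 ratio on the scale with 1 RPKM added, Isl1 mutant over control, against the geometric mean of both libraries in RPKM on a log axis. Grey points are all genes (9 lie outside the axes), black bars are medians of all genes in each level range, orange circles are collagen chains and green diamonds are processing genes. Col1a1, Col1a2, Col3a1 and Col18a1 lie well below the bar of their level range, P4ha2 and Plod2 well above it, and low genes of the set lie where the bar is also lowest.

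The plot of ratio against level shows how far the set stood from other genes of its level. Among genes with a geometric mean of 10 to 20 RPKM, the 7 members had a median of -0.62 and all genes one of -0.095. Under 1 RPKM, the 10 members had a median of -0.87 and all genes one of -0.56. The members' median was below that of all genes in each of the 8 level ranges, although at 50 to 100 RPKM and above 100 RPKM only 1 member each was present, Col3a1 and Col1a1. All genes in the range under 1 RPKM, the 10 members included, were listed through 1 library alone and so had to differ. The medians of that range thus depend on which library listed the genes. At 1 to 2 RPKM the 6 members had a median of -0.72. Among them, Col6a3, Col9a2, Col9a3 and Leprel2 were listed through the control library only and so had to be lower. The comparison in that range was thus also partly fixed by the listing.

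Enzymes that hydroxylate the chains were divided by isoform. The alpha subunits of prolyl 4-hydroxylase make the hydroxyprolines that keep the helix stable at body temperature. P4ha2 (chromosome 11, 53913597 to 53945167, mm9) had 23.3 RPKM in the mutant library and 8.43 RPKM in the control library, 2.76-fold higher (interval 2.63 to 2.91), in place 26 from the highest ratio of 6343 genes. P4ha3, a further isoform, had 1.14 RPKM in the mutant library and 4.67 RPKM in the control library, 4.10-fold lower (interval 3.60 to 4.69). P4ha1, the most widespread isoform and not part of the set, had 23.97 RPKM in the mutant library and 14.5 RPKM in the control library, 1.65-fold higher (interval 1.51 to 1.80).

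Together the alpha subunits summed to 48.4 RPKM in the mutant library and 27.6 RPKM in the control library, while their beta subunit gene P4hb had 243 RPKM in the mutant library and 248 RPKM in the control library. P4ha2 made up 48.1% of the alpha subunit RPKM in the mutant library and 30.5% in the control library. P4ha3 made up 2.35% in the mutant library and 16.9% in the control library.

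The lysyl hydroxylases differed in the same uneven way. Plod2, which hydroxylates lysines of the chain ends and so sets the type of crosslink, had 39.4 RPKM in the mutant library and 20.4 RPKM in the control library, 1.93-fold higher (interval 1.89 to 1.98), in place 79 from the highest ratio. Plod1, which acts within the helix, had 13.8 RPKM in the mutant library and 12.9 RPKM in the control library, 1.07-fold higher (interval 1.04 to 1.10). Plod3, which also adds sugars to hydroxylysine, had 14.7 RPKM in the mutant library and 23.1 RPKM in the control library, 1.57-fold lower (interval 1.53 to 1.62), and its gene overlaps Znhit1 and Mir702. The order of the family thus differed, with Plod3 the highest in the control library and Plod2 the highest in the mutant library, where it made up 58.1% of the family, against 36.1% in the control library.

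Of the leprecan family, Lepre1, a prolyl 3-hydroxylase, had 3.84 RPKM in the mutant library and 6.61 RPKM in the control library, 1.72-fold lower (interval 1.61 to 1.84). Leprel2, a second prolyl 3-hydroxylase, had 0.657 RPKM in the mutant library and 2.17 RPKM in the control library, 3.30-fold lower (interval 2.81 to 3.88). Leprel4, a family member that acts in lysyl hydroxylation, had 2.53 RPKM in the mutant library and 3.39 RPKM in the control library, 1.34-fold lower with an interval that nearly reaches no difference (1.002 to 1.80). That interval rests on at least 87 mutant and 108 control reads and is wider than needed if the true read numbers are larger. The family was lower in each of its 3 members in the table. Leprel2 was listed through the control library only and so had to be lower. Of all 8 hydroxylases and partners 5 were lower and 3 higher, where 67.1% of all genes were lower. Their median log2 ratio was -0.47, although for the 5 of them at 5 RPKM it was 0.087.

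**Figure D4:**
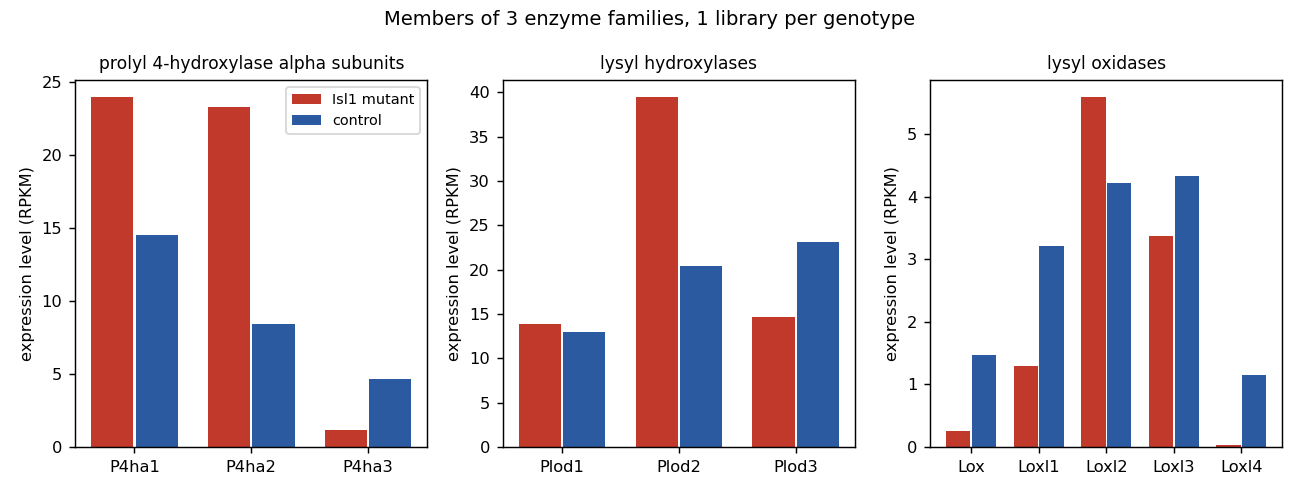
Expression level in RPKM of the prolyl 4-hydroxylase alpha subunits (with P4ha1, which is not part of the set), the lysyl hydroxylases and the lysyl oxidases, as 1 bar per library with red for the Isl1 mutant and blue for the control. P4ha2, Plod2 and Loxl2 are higher in the mutant library (23.3, 39.4 and 5.60 RPKM) than in the control library (8.43, 20.4 and 4.23 RPKM), and P4ha3, Plod3, Lox and Loxl1 are lower.

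The chaperone and the genes acting on secreted procollagen showed small differences where they were abundant. Serpinh1, which encodes HSP47, the chaperone of procollagen, had 39.1 RPKM in the mutant library and 36.98 RPKM in the control library, 1.06-fold higher (interval 1.03 to 1.08). Pcolce, an enhancer of the protease that removes the C-terminal propeptide, had 42.03 RPKM in the mutant library and 47.4 RPKM in the control library, 1.13-fold lower (interval 1.10 to 1.16). Bmp1, that protease, had 1.29 RPKM in the mutant library and 2.67 RPKM in the control library, 2.06-fold lower (interval 1.73 to 2.48). Adamts2, the protease that removes the N-terminal propeptide, had 0.0733 RPKM in the mutant library and 1.27 RPKM in the control library, from at least 21 mutant and 336 control reads, 17.3-fold lower (interval 11.1 to 28.3). As Adamts2 was listed through the control library only, it had to be lower.

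Lysyl oxidases, which oxidise lysines for crosslinking, were at low level and 4 of 5 were lower, with a median log2 ratio of -0.87. Of these, Lox and Loxl4 were listed through the control library only and so had to be lower. Loxl2 was the member at 5 RPKM and the member that was higher, with 5.60 RPKM in the mutant library and 4.23 RPKM in the control library, 1.32-fold (interval 1.26 to 1.40). Its gene region overlaps 5 other genes of the table, among them R3hcc1 and Chmp7 on the opposite strand. Loxl3 had 3.37 RPKM in the mutant library and 4.33 RPKM in the control library. Loxl1, which acts on elastic fibres, had 1.30 RPKM in the mutant library and 3.21 RPKM in the control library, 2.47-fold lower (interval 2.07 to 2.94). The members that were lower all stayed under 5 RPKM in both libraries. Lox, the founding member of the family, had 0.253 RPKM in the mutant library and 1.47 RPKM in the control library, from at least 19 mutant and 102 control reads, and overlaps Srfbp1 on the opposite strand. Loxl4 stood at the fill value in the mutant library, against at least 45 reads and 1.16 RPKM in the control library, at least 16.2-fold lower against a limit of 3 reads. With Loxl4 at that limit the family median was also -0.87.

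In all, 22 genes of the set stayed under 5 RPKM in both libraries, 13 chains and 9 processing genes. All 9 processing genes among them and 10 of the 13 chains were lower, where 72.6% of all genes under 5 RPKM were lower. Of the 13 chains, 7 were listed through the control library only and 3 through the mutant library only. Of the 9 processing genes, 4 were listed through the control library only. The directions of the genes listed through 1 library were thus set by the listing, while the others reached 1 RPKM in both libraries. With the floor set at 1 RPKM, 8 genes of the set were lower by the size rule, against 3.93% of all genes, and 1 was higher, against 1.12%. The 6 genes added were Adamts2, Col24a1, Col5a1, Col6a3, Loxl4 and P4ha3, and 4 of these had been listed through the control library only.

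Other genes of the collagen pathway lay on both sides. Of 32 listed genes for folding, secretion, breakdown and cell attachment 23 are in the table, 17 of them lower and 6 higher, where 67.1% of all genes were lower. Their median log2 ratio was -0.14, beside -0.18 for all genes, and 0 met the size rule. Mmp2, a gelatinase that cuts denatured collagen, had 12.3 RPKM in the mutant library and 22.5 RPKM in the control library, 1.82-fold lower. Mrc2, an uptake receptor for collagen, had 1.15 RPKM in the mutant library and 2.45 RPKM in the control library, 2.13-fold lower and under 5 RPKM in both. Tmem38b, an ion channel of the endoplasmic reticulum needed for collagen modification, was 1.56-fold lower, Mmp14, a membrane-bound collagenase, 1.51-fold lower, and the integrin subunit Itgb1 1.15-fold lower. Itga1, the alpha subunit of a collagen receptor, had 5.01 RPKM in the mutant library and 2.58 RPKM in the control library, 1.95-fold higher, and the collagen receptor kinase Ddr1 and the folding enzyme Fkbp14 were 1.16-fold and 1.13-fold higher. Receptor and folding genes thus stood on both sides. Sparc, a collagen-binding matrix protein, had 375 RPKM in the mutant library and 400.2 RPKM in the control library.

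Markers of several other cell types were lower beside the collagens, and heart muscle markers were higher. Over all genes 67.1% were lower. Of 13 fibroblast and mesenchyme markers, 9 are in the table and all 9 were lower, with a summed level of 97.0 RPKM in the mutant library and 161 RPKM in the control library. Pdgfra, a receptor of mesenchymal cells, had 1.45 RPKM in the mutant library and 9.53 RPKM in the control library, and Dcn, the decorin gene, had 19.3 RPKM in the mutant library and 27.9 RPKM in the control library. Dpt, Meox1, Thy1 and Twist1 are not among the genes of the table used here. Of 11 macrophage and blood markers 10 are in the table and all 10 were lower, with 9.67 RPKM summed in the mutant library and 48.3 RPKM in the control library. Of these 10, 7 were listed through the control library only and so had to be lower. All 12 erythroid markers listed were in the table and lower, with 73.3 RPKM in the mutant library and 418 RPKM in the control library.

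Endothelial and endocardial markers, whose cells the beads were meant to remove, were lower in 7 of the 9 in the table (of 11 listed). As 67.1% of all genes were lower, 7 of 9 is near that share. Of the 9, 3 were listed through the control library only and 1 through the mutant library only. The 9 summed to 20.1 RPKM in the mutant library and 32.1 RPKM in the control library. Epicardial markers were lower in 5 of the 10 in the table (of 11 listed) and higher in 5, with 156 RPKM summed in the mutant library and 127 RPKM in the control library. Heart muscle markers were higher in 9 of 10 cases, with a summed level of 19893 RPKM in the mutant library and 14214 RPKM in the control library. No listed marker in the table stood at the fill value that replaces 0 in the mutant library. Every gene in the table reaches 1 RPKM in at least 1 library by the listing itself. The median log2 ratio of the collagen chains was -0.82, as was that of the fibroblast and mesenchyme markers. Other lists lay near it, with -0.90 for pacemaker, -0.97 for macrophage and blood and -0.71 for the 2 cartilage markers. The medians were -0.54 for endothelial and endocardial, -1.90 for erythroid, -0.036 for epicardial and 0.34 for heart muscle markers. The part of these cell types in the collagen values was not tested.

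**Figure D5:**
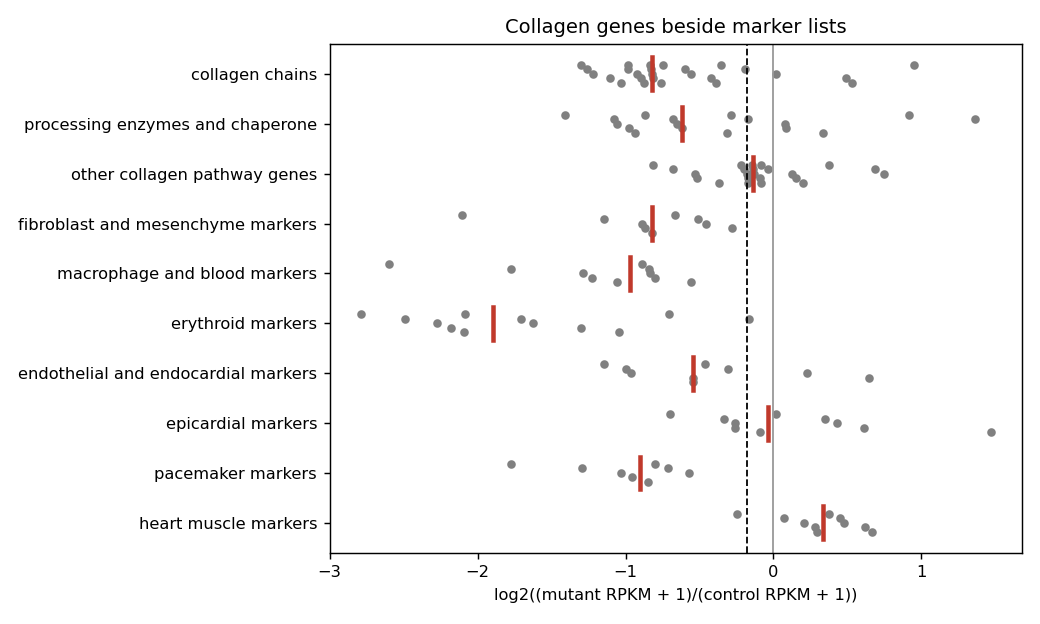
Log2 ratio on the scale with 1 RPKM added, Isl1 mutant over control, for collagen chains, processing genes, other collagen pathway genes and 7 marker lists, with grey points for genes and red bars for list medians. The dashed line is the median of all genes (-0.18). Collagen chains and fibroblast markers have medians of -0.82, pacemaker markers -0.90, macrophage and blood markers -0.97, other pathway genes -0.14 and heart muscle markers 0.34.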

How the data were processed

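Per the file headers, the deposited gene table lists 12557 Ensembl genes by mm9 position and constitutive exons, with 1 value per library and no unit. The values are taken as RPKM made by the authors, because multiplying them by the length of 317 short genes of 1 exon returned whole reads (tolerance 0.01) for 304 genes in the mutant and 312 in the control column. The submitters' processing notes name Trim Galore, FastQC, TopHat2 and Bowtie2. Which program produced the gene values is not stated by them. A log2 fold change deposited by the authors matched the ratio of the value columns within 1.89e-07. Their deposited score, a fold with a sign, was not used.

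Where a symbol had several rows the one with the highest mean was kept, leaving 12446 symbols. The smallest whole read numbers that fit both libraries were recovered for 41 of the 43 genes and gave Clopper-Pearson intervals of the ratio, which can be wider than needed. The other 2 stand at a fill value worth 1.56 reads in the mutant library, and their bounds use 3 reads. Lengths for the trend alternative came from GENCODE release M 21. Alternatives were pseudocounts of 0.1 and 5 RPKM, other floors, centring, removal of the trend with level and length (10 by 5 bins), a 1.5-fold threshold and means. Procedures were tested on simulated data and run in Python 3.11.15 with scipy 1.17.1. Named genes are all 43 members, Isl1 and, of the other pathway genes, the 4 lowest and 4 highest ratios at 5 RPKM. P4hb, Sparc, Mrc2, markers and overlapping genes were named after their values were seen. Members and lists were chosen with earlier results of these data known.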

Additional observations from a re-analysis of the deposited data

How the results depend on the processing

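Counts were compared as members lower (2) and higher (1) in the mutant library, and medians on the log2 scale. With no floor, or with a floor of 1 RPKM, 8 members were lower. At a 1.5-fold threshold 11 were lower and 2 higher, and with the trend of level and length removed 2 were higher, P4ha2 and Plod2. With a floor of 5 RPKM the medians changed sign for hydroxylases and their partners (0.087) and for lysyl oxidases (0.34, Loxl2 alone), and were -0.58 for type IV, -0.51 for type VI, -0.98 for FACIT and -0.17 for propeptide processing genes. With a pseudocount of 0.1 RPKM the medians were -0.91 for all members, -1.26 for fibrillar, -0.47 for type IV, -1.20 for type VI, -1.02 for FACIT, -0.99 for propeptide processing and -1.24 for lysyl oxidase genes. With 5 RPKM they were -0.29, -0.51, -0.28, -0.35, -0.29, -0.29 and -0.29 in the same order, and -0.25 for hydroxylases. With the trend removed they were -0.44, -0.68, -0.26, -0.50, -0.50, -0.32 and -0.44 in that order. Centring on the median of the 5279 genes at 5 RPKM in both libraries (-0.068) gave -0.92 for fibrillar, -0.35 for type IV and -0.81 for type VI chains. Means in place of medians gave -0.52 for all members, -0.76 for fibrillar, -0.74 for type VI, -0.19 for hydroxylase and -0.57 for lysyl oxidase genes. The cause of these shifts was not tested. No paired analysis was possible because each genotype has 1 library, and for the same reason no library could be left out. Read depth limits the genes under 5 RPKM most, where intervals are widest.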
